A study of Mus musculus with 8 samples.

Results

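The genes for the secreted Wnt and Fgf signals were followed through H3K4me3 ChIP-Seq. All 41 ligand genes of both families, 19 Wnt and 22 Fgf genes, were found by symbol among 26225 annotated mouse genes (protein-coding, lincRNA and processed-transcript genes of the mm9 assembly), and the tags within 1 kb of the transcriptional start site (TSS) of each were counted. The cells were wild-type (wt) mouse embryonic stem cells (mESCs) of the line TC-1, menin-null mESCs of the line 3.2N, which carry the Men1 knockout, and the pancreatic islet-like endocrine cells (PILECs) made from each line in culture. The genetic background given for the mESCs is 129S6/SvEvTac, and mESCs were taken off their feeder cells before use. The PILEC protocol passed through embryoid bodies, an expansion step in medium that contained FGF, and a last step with nicotinamide and without FGF. Each of these 4 kinds of cells gave 1 H3K4me3 library and 1 input library, each genotype is 1 cell line, and there were no replicates. Genotype and cell line therefore cannot be told apart.

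Wnt proteins are lipid-modified signals that bind Frizzled receptors with Lrp5, Lrp6 or Ror coreceptors, and act either through β-catenin or by routes that do not need it. Fgf proteins mostly bind the receptor tyrosine kinases Fgfr1 to Fgfr4 and signal through MAP kinase, whereas the Fgf11 to Fgf14 proteins stay inside the cell and Fgf15, Fgf21 and Fgf23 act as hormones. In mESCs Fgf4 is an autocrine signal that primes the cells to leave self-renewal, and in the embryonic pancreas Fgf10 from the mesenchyme sustains the progenitor cells. H3K4me3, trimethylation of lysine 4 of histone H3, marks the starts of active and poised genes, and menin is a subunit of the MLL1 and MLL2 complexes that deposit it.

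Depth differed between the stages. The mESC libraries for H3K4me3 held 2432377 (wt) and 3517028 tags (menin-null) and those of PILECs 18773635 (wt) and 17682677 tags (menin-null), while the inputs held 3744616 to 19016697. Tags within 1 kb of any annotated TSS made up 43.53%, 51.39%, 42.7% and 40.07% of the H3K4me3 libraries, in that order, and 4.73% to 7.57% of the inputs. Levels are given as tags per 1000000 tags of the library (RPM), and each ratio as a log2 ratio with its 95% counting interval in brackets. Such an interval compares 2 libraries and leaves out all variation between cultures. At Men1 itself, the longest stretch of the gene without a tag in any of the 4 menin-null libraries spanned 2901 bp. Its 0 tags in those libraries follow from this choice. The same stretch held 1, 75, 18 and 29 tags in the H3K4me3 libraries of wt mESCs and wt PILECs and their inputs. The label of the PILECs was compared with H3K4me3 at marker genes. The study itself examined this label by RNA and protein, which are other measures. By RT-PCR it found low to moderate Ins1, Ins2, glucagon and Iapp transcripts in PILECs of both genotypes. It also reported a rise of NeuroD1 protein, a fall of Oct4 and staining for C-peptide in both. Of 8 mESC markers, 7 were lower in PILECs than in mESCs in the wt cells (14.4% of all genes tested) and 8 in the menin-null cells (22.4%). Of 17 islet markers 8 were marked in PILECs of either genotype (53.8% and 53.0% of all genes) and 6, not the same genes in both genotypes, in mESCs. Of the 11 tested between stages, 3 were lower (14.4% of all genes tested) and 1 higher (6.49%) in wt PILECs than in wt mESCs. In the menin-null cells 4 of 11 were lower (22.4%) and 1 higher (5.16%). The pancreatic transcription factor gene Pdx1 was lower in both, while Ins1, Ins2, Gcg and Iapp stood at 0.213 to 1.24 RPM and were not marked. Fibroblast markers were marked at 8 of 8 genes in wt PILECs (53.8% of all genes) and 6 of 8 in menin-null PILECs (53.0%), and neural markers at 6 of 6 in both. In mESCs 2 of the 8 fibroblast markers were marked in wt (50.3% of all genes) and 3 in menin-null cells (51.4%). Summed levels of the fibroblast markers were 56.3 RPM in wt mESCs and 82.6 in wt PILECs, and 68.0 RPM in menin-null mESCs and 68.3 in menin-null PILECs. The part of other cell types in the values below was not tested, and a change in all cells cannot be told apart from a change in the mix of cells.

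A gene was called marked when the lower limit of its ratio of H3K4me3 to input lay above 2-fold. This limit depends on library depth and on the input level, which both differ between the stages, so a gain of this label need not be a gain of H3K4me3. Marked in at least 1 library were 32 of the 41 ligand genes, beside 56.6% of all genes. By library, marked were 21 of the 41 genes in wt mESCs (50.3% of all genes), 27 in menin-null mESCs (51.4% of all genes), 29 in wt PILECs (53.8% of all genes) and 27 in menin-null PILECs (53.0% of all genes). When libraries were scaled by their tags near starts, which divides that enrichment out of the ratio, the counts were 1, 1, 7 and 5. The shares of all genes at this scaling are not given here, so these counts cannot be set beside those of all genes. The median level over the 41 genes was 10.7, 10.2, 9.64 and 6.90 RPM in that order, beside 9.46, 9.38, 7.14 and 6.05 RPM over all genes. Marked in all 4 libraries were 16 genes (47.1% of all genes), namely Wnt2b, Wnt3, Wnt4, Wnt5b, Wnt7a, Wnt9a, Wnt9b, Fgf2, Fgf3, Fgf8, Fgf9, Fgf11, Fgf13, Fgf15, Fgf18 and Fgf20. Marked in none were 9 (43.4% of all genes), namely Wnt8a, Wnt8b, Wnt10a, Fgf1, Fgf6, Fgf7, Fgf21, Fgf22 and Fgf23. Fgf6, a muscle growth factor, had the lowest mean over the 4 libraries, with 0 tags in wt mESCs, which allows up to 1.23 RPM, 0.284 RPM in menin-null mESCs, and 0.479 and 0.452 RPM in the PILECs. Fgf23, the phosphate-regulating hormone whose TSS lies 57.4 kb from that of Fgf6, stood at 0.822, 0.853, 0.799 and 0.566 RPM, and Fgf21, the fasting hormone, at 1.23, 1.14, 0.479 and 0.679 RPM. Fgf7, a mesenchymal growth factor for epithelia, stood between 0.569 and 1.30 RPM. All of these lay below the highest input level at the ligand genes in their own cells.

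**Figure D1:**
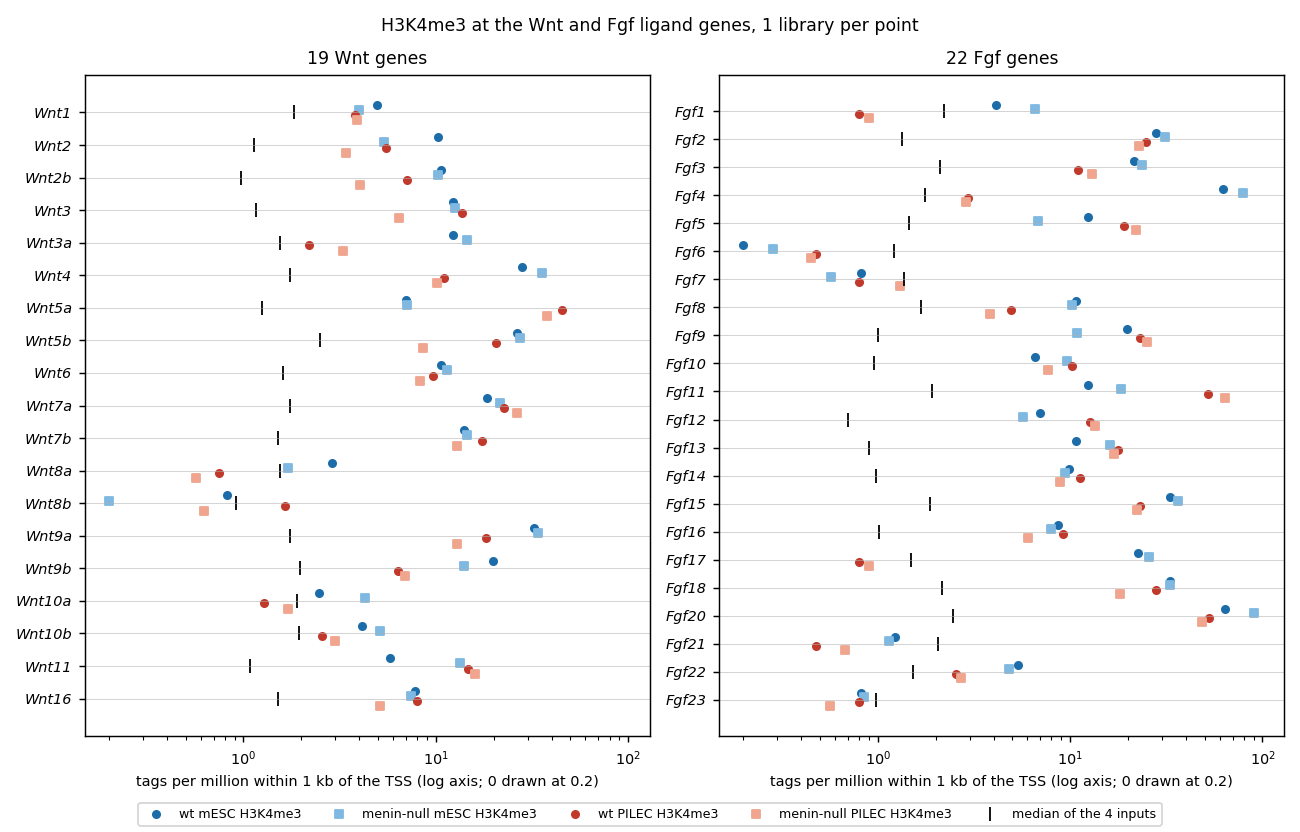
H3K4me3 level (RPM) within 1 kb of the TSS at each ligand gene, on a log axis, with 1 point per library and a black bar at the median of the 4 inputs. Fgf4 and Fgf17 show the widest gap between mESCs (blue) and PILECs (red), Wnt5a and Fgf11 the widest in the other direction, and Fgf6, Fgf7, Fgf21 and Fgf23 sit near or below their inputs.

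Inputs set a higher floor in mESCs than in PILECs. The median input level at the 41 genes was 2.59 and 2.40 RPM in wt and menin-null mESCs and 0.894 and 0.993 RPM in the corresponding PILECs. The median log2 ratio of the input between PILECs and mESCs was -1.58 over 38 ligand genes in wt cells and -1.34 over 34 in menin-null cells, beside -1.09 and -0.95 over all genes with enough tags. Ratios between stages of genes that are not marked are therefore given with their inputs.

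The sequence at the start of these genes moved with the level of H3K4me3. CpG dinucleotides are sparse in most of the genome and concentrated at many promoters, and their density is given as the count seen over the count expected from the C and G content within 500 bp of the TSS. Its median was 0.656 over the 41 genes and 0.539 over all genes. The 16 genes marked in all 4 libraries had a median of 0.787 (range 0.462 to 1.00), the 16 marked in 1 to 3 libraries 0.682 (range 0.341 to 0.890), and the 9 marked in none 0.326 (range 0.175 to 0.488). Across the 41 genes Spearman's rho between this density and the log2 level was 0.69 and 0.71 in wt and menin-null mESCs and 0.67 and 0.66 in wt and menin-null PILECs, and Pearson's r was 0.68, 0.68, 0.72 and 0.69. The same rho over all 26225 genes was 0.85, 0.85, 0.81 and 0.80. These are correlations across genes of single libraries, and in the inputs rho over the 41 genes was 0.31, 0.08, -0.27 and -0.26. Over all genes the inputs moved with this density too, with rho of 0.62, 0.57, 0.22 and 0.27. Some marked genes had low densities. Fgf17, marked in mESCs, had 0.399, Fgf11, marked throughout, 0.462, and Wnt16, marked in PILECs, 0.341, which exceed those of 40.7%, 44.9% and 36.4% of genes.

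**Figure D2:**
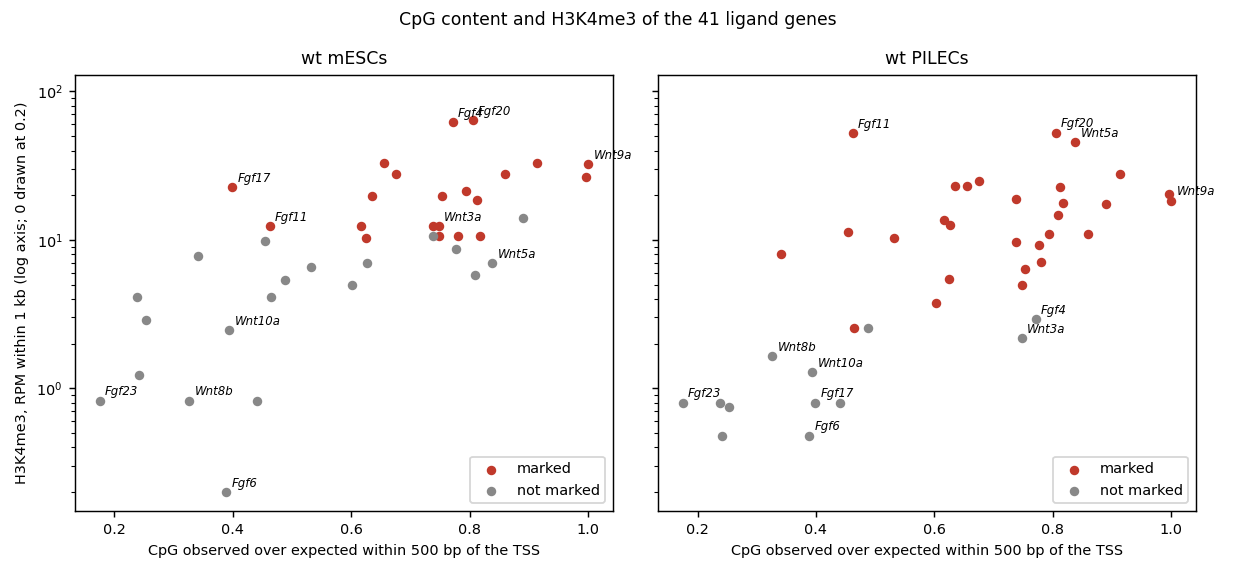
CpG observed over expected within 500 bp of the TSS against H3K4me3 (RPM within 1 kb, log axis) at the 41 genes in wt mESCs and wt PILECs, 1 point per gene, red where marked. The 9 genes marked in no library lie at 0.488 or below, while Fgf4 and Wnt3a, at 0.771 and 0.748, fall from the marked to the unmarked points between the panels.

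The 250 bases upstream of 7 starts are shown because these genes carry differences described next, or, for Fgf6, because the gene was marked in no library. They were read from the mm9 genome on the strand of the gene, end 1 base before the TSS, and have each CG in capitals. The windows are chr7:152047041-152047290 (plus strand) for Fgf4, chr14:71042076-71042325 (minus) for Fgf17, chr11:69615360-69615609 (minus) for Fgf11, chr5:98682953-98683202 (plus) for Fgf5, chr11:103635214-103635463 (plus) for Wnt3, chr6:119494337-119494586 (minus) for Wnt5b and chr6:126965310-126965559 (plus) for Fgf6.
Fgf4: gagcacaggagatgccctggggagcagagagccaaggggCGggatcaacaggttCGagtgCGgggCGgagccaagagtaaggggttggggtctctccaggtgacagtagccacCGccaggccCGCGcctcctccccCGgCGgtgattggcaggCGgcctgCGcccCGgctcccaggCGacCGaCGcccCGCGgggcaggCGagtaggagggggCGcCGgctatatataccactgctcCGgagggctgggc
Fgf17: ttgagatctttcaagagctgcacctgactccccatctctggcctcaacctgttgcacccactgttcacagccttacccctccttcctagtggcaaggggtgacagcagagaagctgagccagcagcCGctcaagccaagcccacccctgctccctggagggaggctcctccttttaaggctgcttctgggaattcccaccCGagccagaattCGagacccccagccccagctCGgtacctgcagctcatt
Fgf11: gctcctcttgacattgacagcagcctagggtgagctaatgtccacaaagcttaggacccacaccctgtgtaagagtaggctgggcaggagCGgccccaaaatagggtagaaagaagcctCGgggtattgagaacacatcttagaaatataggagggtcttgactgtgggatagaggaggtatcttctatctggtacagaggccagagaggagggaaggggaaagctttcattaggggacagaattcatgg
Fgf5: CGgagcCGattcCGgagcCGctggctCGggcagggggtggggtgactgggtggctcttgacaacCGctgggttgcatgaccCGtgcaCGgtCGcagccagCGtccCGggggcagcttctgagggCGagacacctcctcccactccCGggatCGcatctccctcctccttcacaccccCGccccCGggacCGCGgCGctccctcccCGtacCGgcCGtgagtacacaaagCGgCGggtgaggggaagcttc
Wnt3: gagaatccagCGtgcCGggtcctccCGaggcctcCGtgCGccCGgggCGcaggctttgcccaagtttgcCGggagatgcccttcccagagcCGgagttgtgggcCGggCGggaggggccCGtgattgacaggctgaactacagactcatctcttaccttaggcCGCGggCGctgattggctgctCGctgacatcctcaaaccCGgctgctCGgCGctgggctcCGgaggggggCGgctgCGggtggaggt
Wnt5b: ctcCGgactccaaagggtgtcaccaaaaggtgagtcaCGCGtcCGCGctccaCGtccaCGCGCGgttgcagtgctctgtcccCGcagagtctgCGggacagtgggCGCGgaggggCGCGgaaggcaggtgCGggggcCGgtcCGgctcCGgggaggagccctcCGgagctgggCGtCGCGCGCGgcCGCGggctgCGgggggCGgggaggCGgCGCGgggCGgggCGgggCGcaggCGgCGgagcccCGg
Fgf6: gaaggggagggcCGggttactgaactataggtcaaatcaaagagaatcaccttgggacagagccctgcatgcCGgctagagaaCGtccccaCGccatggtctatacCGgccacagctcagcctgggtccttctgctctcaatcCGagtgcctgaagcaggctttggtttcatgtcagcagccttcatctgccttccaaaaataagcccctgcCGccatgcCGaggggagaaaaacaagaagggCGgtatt
No annotated exon overlaps these stretches. They hold 21 CG in Fgf4, 4 in Fgf17, 2 in Fgf11, 24 in Fgf5, 22 in Wnt3, 38 in Wnt5b and 9 in Fgf6, so the 2 stretches poorest in CG are those of Fgf17 and Fgf11.

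Between mESCs and PILECs a group of ligand genes led by Fgf4, Fgf17 and Wnt3a was lower in H3K4me3, and a smaller one led by Wnt5a and Fgf11 was higher. With at least 20 tags in the 2 libraries together, at least 2-fold and an interval on 1 side of 0, 9 of 37 ligand genes were lower in wt PILECs than in wt mESCs (14.4% of all genes tested) and 3 were higher (6.49% of all genes tested). In menin-null cells 11 of 36 were lower (22.4% of all genes tested) and 5 higher (5.16% of all genes tested). Thinned to the smallest library, 5 of 31 were lower in wt cells (11.3% of all genes tested) and 3 of 32 higher in menin-null cells (4.95%). Counted within 500 bp, 17 of 34 were lower in menin-null cells (26.8% of all genes tested) and 3 higher (5.05%). The median log2 ratio over the ligand genes was -0.29 in wt and -0.72 in menin-null cells, and over all genes -0.05 and -0.35. When libraries were scaled by their tags near starts instead of all tags, the median over all genes in menin-null cells moved to 0.01 and the calls from 3767 lower and 867 higher to 2546 lower and 1585 higher. The stage comparisons share no library. Across the 35 ligand genes tested in both, Pearson's r of the log2 ratios was 0.93 and Spearman's rho 0.89, beside 0.89 and 0.87 over 16059 genes. Lower in both were 7 genes, higher in both 2, and 0 had opposite calls, beside 2051, 602 and 6 of the 16059.

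**Figure D3:**
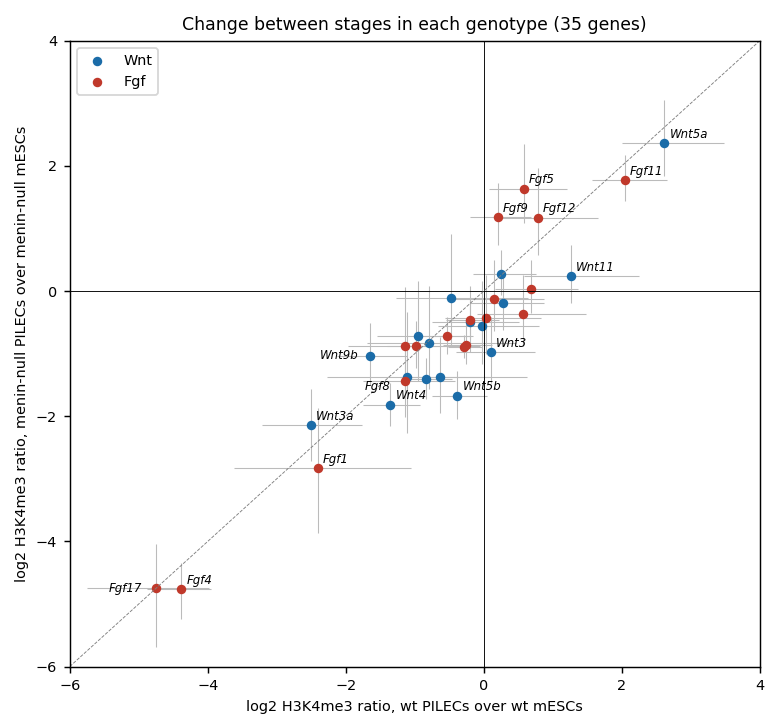
Log2 H3K4me3 ratio of PILECs over mESCs in wt (x axis) and menin-null cells (y axis) for the 35 ligand genes tested in both, 1 point per gene with 95% counting intervals; the dashed line marks equal ratios. Fgf4 and Fgf17 lie below -4 on both axes, Wnt5a and Fgf11 above 1.7 on both.

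Fgf4, the autocrine signal of mESCs, had the highest level of any Fgf gene with a start of its own in mESCs and was low in PILECs. Within 1 kb of its TSS (chromosome 7, 152047291, plus strand) H3K4me3 stood at 62.1 and 79.6 RPM in wt and menin-null mESCs and at 2.93 and 2.88 RPM in the PILECs, and the input at 3.06, 2.67, 0.841 and 0.717. Both mESC libraries were far above both PILEC libraries, and the mESC level exceeded that of 95.7% of all genes in wt and 96.2% in menin-null cells. The log2 ratio between stages was -4.39 (-4.88 to -3.95) in wt and -4.76 (-5.25 to -4.35) in menin-null cells. In mESCs of both genotypes pooled, windows of 200 bp with at least 1 RPM covered 3600 bp around the TSS, highest 300 bp into the gene. In PILECs no window reached 1 RPM. The low remainder in menin-null PILECs still passed the rule for marked and that in wt PILECs did not, with lower limits of the log2 ratio to input of 1.11 and 0.98 on either side of the threshold of 1.

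Fgf17, a member of the Fgf8 group that patterns the midbrain and other embryonic fields, was no longer marked in PILECs. It held 22.6 RPM in wt mESCs and 25.6 in menin-null mESCs, and 0.799 and 0.905 in the PILECs, where the inputs stood at 1.37 and 0.552. The log2 ratios were -4.76 (-5.75 to -3.98) in wt and -4.75 (-5.69 to -4.04) in menin-null cells. The covered width went from 2200 bp to 0. Fgf8 itself fell less, from 10.7 and 10.2 RPM to 4.95 and 3.85, with log2 ratios of -1.15 (-1.75 to -0.42) and -1.43 (-2.02 to -0.79), and stayed marked. The wt call of Fgf8 was lost within 500 bp, within 2 kb and when thinned. Fgf18, the third of the group, kept 27.8 RPM in wt PILECs after 32.9 in wt mESCs, a ratio of -0.26 (-0.58 to 0.12), and had 33.0 and 18.3 RPM in the menin-null cells.

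Among the Wnt genes, Wnt3a, which acts through β-catenin, fell most. Its levels were 12.3 RPM in wt and 14.5 in menin-null mESCs, and 2.18 and 3.28 in the PILECs, over inputs of 1.88, 2.40, 1.16 and 1.21. The log2 ratios were -2.51 (-3.21 to -1.77) and -2.15 (-2.71 to -1.57), and the gene was marked only in the mESCs. Wnt4, needed for kidney and gonad development, went from 28.0 and 35.5 RPM to 11.0 and 10.1, with ratios of -1.36 (-1.74 to -0.93) and -1.82 (-2.15 to -1.47), and stayed marked. Wnt9b, a kidney duct signal, went from 19.7 and 13.9 RPM to 6.39 and 6.90, with ratios of -1.64 (-2.12 to -1.11) and -1.03 (-1.50 to -0.50). Its menin-null call was lost when repeated positions were counted once, within 2 kb and when libraries were scaled by tags near starts. In these 3 genes both mESC libraries were above both PILEC libraries. In menin-null cells Wnt2b was also called lower, at -1.37 (-1.95 to -0.73) though not when thinned, with 10.7, 10.2, 7.08 and 4.02 RPM in the 4 libraries, and Wnt5b, at -1.67 (-2.04 to -1.28).

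A further set was called lower although it was not marked. Fgf1, an Fgf that lacks a classical signal peptide, went from 4.11 and 6.54 RPM to 0.799 and 0.905, with ratios of -2.41 (-3.61 to -1.05) and -2.83 (-3.87 to -1.87). Its input fell too, by log2 ratios of -1.21 (-2.17 to -0.08) and -1.33 (-2.33 to -0.14). Wnt8a, a posterior patterning signal, was called lower in wt cells, from 2.88 to 0.746 RPM with a ratio of -2.04 (-3.35 to -0.40), beside an input ratio of -0.75 (-1.85 to 0.73). Fgf22, a synaptic organizer, went from 5.34 to 2.56 RPM in wt cells, a ratio of -1.14 (-1.97 to -0.06) with an input ratio of -0.36 (-1.45 to 1.23). Wnt10a, a signal in teeth and hair, was called lower in menin-null cells, from 4.26 to 1.70 RPM with a ratio of -1.38 (-2.27 to -0.33), beside an input ratio of -0.90 (-1.95 to 0.48). With input subtracted these genes were called as well, but only the ratio changed there and the interval stayed that of the raw counts. Fgf1 and Wnt8a stood below their input in wt PILECs, at 0.799 and 0.746 RPM beside 1.37 and 1.21. For them this setting cannot tell whether the fall exceeds that of the input. Counting repeated positions once removed the calls of Wnt8a and Fgf22, a limit of 2 mismatches that of Fgf22, counting within 500 bp those of Wnt8a and, in wt cells, Fgf1, and counting within 2 kb or scaling by tags near starts that of Wnt10a. With at least 50 tags 3 of the 4 were not called, Fgf1, Wnt8a and Wnt10a, and thinned to the smallest library Fgf1 was called in menin-null cells and the others in neither.

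Wnt5a, a Wnt that mainly acts without β-catenin and is abundant in mesenchyme, rose most. At the start used (chromosome 14, 29319086, plus strand) it held 6.99 and 7.11 RPM in wt and menin-null mESCs and 45.3 and 38.1 RPM in the PILECs, over inputs of 2.59, 1.34, 1.16 and 0.662. The log2 ratios were 2.62 (2.01 to 3.48) and 2.37 (1.85 to 3.06), and both PILEC libraries were above both mESC libraries. The covered width grew from 800 bp in mESCs to 4600 bp in PILECs. Another annotated start 4718 bp into the gene rose as well, from 4.93 and 6.26 to 15.8 and 11.3 RPM, with ratios of 1.57 (0.85 to 2.65) and 0.79 (0.21 to 1.55). Of 8 fibroblast markers, 4 rose in wt cells (6.49% of all genes tested) and 3 in menin-null cells (5.16%), and 1, Thy1, fell in each (14.4% and 22.4%). Col3a1, a collagen gene, went from 0.411 and 0 RPM to 6.13 and 4.30. The part of fibroblast-like cells in the Wnt5a values was not tested.

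Fgf11 rose next, one of the intracellular Fgf proteins, which bind voltage-gated sodium channels and are found mostly in neurons. Its levels were 12.3 and 18.5 RPM in mESCs and 52.4 and 64.2 in PILECs, with ratios of 2.04 (1.56 to 2.66) in wt and 1.78 (1.44 to 2.18) in menin-null cells, and in menin-null PILECs it was the highest of the 41 ligand genes. The covered width at Fgf11 was 3400 bp in mESCs and 4200 bp in PILECs, highest 700 and 500 bp into the gene. Of its tags within 5 kb, the counted window held 31.25% and 34.9% in wt and menin-null mESCs, and 59.1% and 63.9% in the PILECs. Part of the rise within 1 kb thus goes with a changed spread of tags. Of the same intracellular group Fgf12 went from 6.99 and 5.69 to 12.7 and 13.4 RPM, called in menin-null cells with 1.17 (0.58 to 1.97) and not in wt cells with 0.78 (0.15 to 1.66). The counted window missed the Fgf12 peak, which lay upstream, centred at -1500 bp from the TSS in mESCs and -1100 bp in PILECs. Its highest 200-bp window held 6.17 and 6.26 RPM in wt and menin-null mESCs and 5.81 and 5.43 RPM in the PILECs. The Fgf12 ratios therefore describe the flank of the peak. The Fgf12 call was lost within 500 bp, within 2 kb, at the 5' end of the tag and when thinned. Fgf13 stood at 10.7, 16.2, 17.8 and 16.9 RPM and Fgf14 at 9.87, 9.38, 11.3 and 8.82 RPM, without a call. Another Fgf13 start far upstream (chromosome X, 56820649, minus strand) went from 4.93 and 6.54 to 16 and 18.2 RPM, with ratios of 1.59 (0.87 to 2.67) and 1.42 (0.86 to 2.15). Of 6 neural markers, 4 were marked in wt and 5 in menin-null mESCs (50.3% and 51.4% of all genes). From mESCs to PILECs 2 were higher in wt cells (6.49% of all genes tested) and 1 in menin-null cells (5.16%). Dcx, a gene of young neurons and the one higher in both, went from 0 and 0.284 RPM to 10.7 and 11.5, while Nes stood at 23.4, 25.3, 21.0 and 15.9, and the part of neural cells in these values was not tested. Muscle markers were marked at 0 of 6 genes in both PILEC libraries, and liver and endoderm markers at 1 of 6.

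Wnt11, which guides cell movement, was called higher in wt cells only, from 5.76 to 14.7 RPM with 1.26 (0.58 to 2.24), and had 13.4 and 16 RPM in menin-null cells, a ratio of 0.23 (-0.19 to 0.74). Its start 3714 bp downstream held 8.22, 8.25, 13.1 and 10.5 RPM. Fgf5, a marker of the epiblast that mESCs pass through as they leave self-renewal, and Fgf9, a mesenchymal growth signal, were called higher in menin-null cells, with 1.63 (1.09 to 2.35) and 1.18 (0.73 to 1.73). In wt cells their ratios were 0.58 (0.08 to 1.21) and 0.20 (-0.20 to 0.69). Fgf5 held 12.3, 6.82, 19 and 22 RPM and Fgf9 19.7, 10.8, 23.1 and 25 RPM, so both PILEC libraries were above both mESC libraries at each gene. The Fgf9 call was lost within 500 bp, at the 5'-most start and when thinned. The call in menin-null cells alone holds for the Fgf9 start used. Upstream, the start at 58693952 (chromosome 14, plus strand) met the rule in wt and menin-null cells, with 1.16 (0.65 to 1.83) and 2.25 (1.68 to 3.02). So did the start at 58691523, with 1.13 (0.52 to 1.97) and 1.03 (0.53 to 1.68). The start at 58689384 did not, with 0.34 (-0.28 to 1.17) and 0.75 (0.20 to 1.46). The covered width at Fgf9 was 2400 bp in mESCs and 4200 bp in PILECs.

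**Figure D4:**
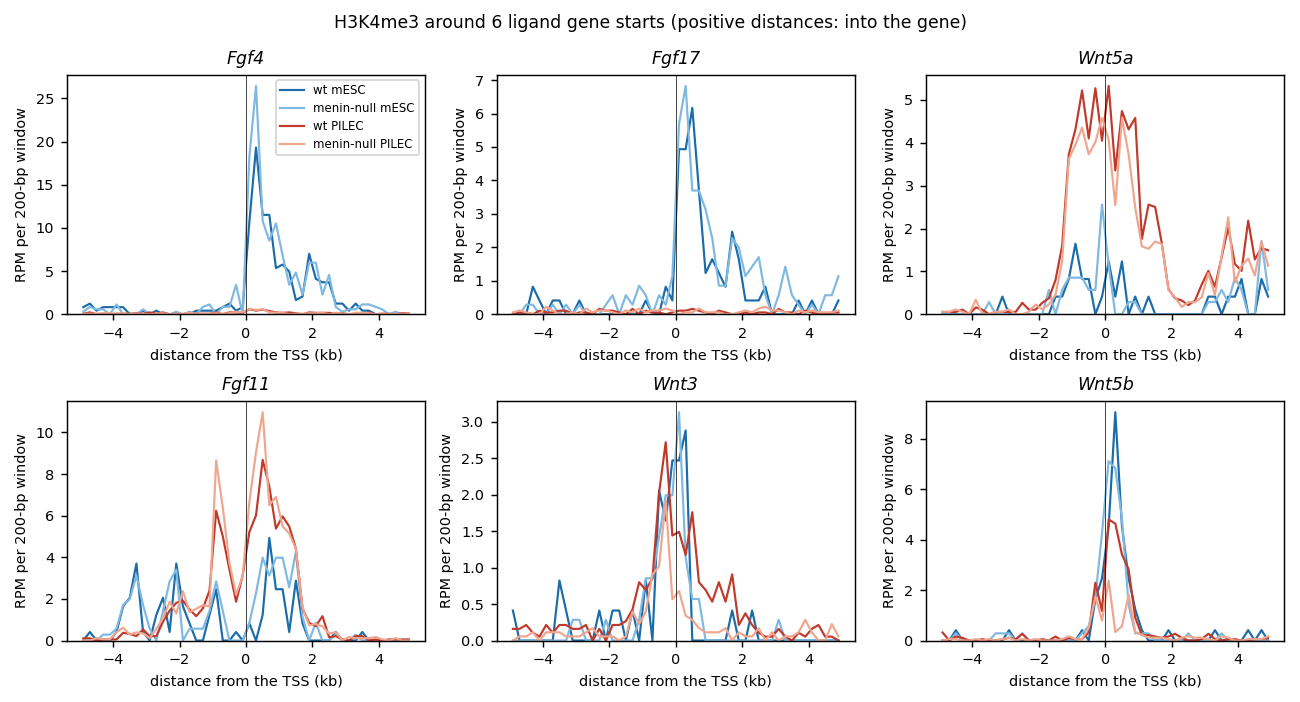
H3K4me3 level (RPM) in 200-bp windows within 5 kb of the TSS of 6 ligand genes, 1 line per library. At Fgf4 and Fgf17 the mESC peaks just inside the gene are flat in PILECs, at Wnt5a the PILEC signal covers both sides of the TSS, and at Wnt5b the highest window of menin-null PILECs is 2.38 RPM beside 4.79 in wt PILECs.

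Among 7 pairs of neighbouring ligand genes tested, the intervals of the stage ratio lay apart in 4 in wt cells and in 2 in menin-null cells. The 2 that hold Fgf4 lay apart in both genotypes. Pairs among Fgf3, Fgf4 and Fgf15 share genes, and the share over neighbouring pairs of all genes was not computed. Fgf3, Fgf4 and Fgf15 lie in a row on chromosome 7, with the TSS of Fgf3 22.8 kb and that of Fgf15 35.1 kb from that of Fgf4. Beside Fgf4, Fgf3, an inner ear and tooth signal, held 21.4, 23.6, 11.0 and 13.0 RPM, and Fgf15, the hormone of the gut that acts on bile acid synthesis, 32.9, 36.4, 23.1 and 22.2 RPM. Their ratios between stages were -0.98 (-1.41 to -0.49) and -0.53 (-0.86 to -0.15) in wt and -0.88 (-1.23 to -0.49) and -0.72 (-1.01 to -0.42) in menin-null cells, and both genes were marked in all 4 libraries. The interval of Fgf4 overlapped with neither.

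On chromosome 11, Wnt9a, which acts in joints, starts 16.2 kb from Wnt3a and held 32.5, 34.1, 18.3 and 12.9 RPM. Its ratio was -0.84 (-1.18 to -0.45) in wt cells and -1.41 (-1.73 to -1.07) in menin-null cells, and the interval of Wnt3a lay below it in wt cells and overlapped with it in menin-null cells. Wnt3, needed for gastrulation, starts 24.3 kb from Wnt9b, and its wt ratio between stages was 0.10 (-0.40 to 0.74) beside -1.64 for Wnt9b, while in menin-null cells the ratios were -0.98 (-1.47 to -0.42) and -1.03. The brain signal Wnt1, 14.4 kb from Wnt10b, held 4.93, 3.98, 3.78 and 3.90 RPM, and Wnt10b 4.11, 5.12, 2.56 and 3.0. Both were marked only in wt PILECs, although their H3K4me3 level was lowest there. The input at Wnt1 was 2.35 RPM in wt mESCs and 1.05 in wt PILECs, and that at Wnt10b 3.53 and 0.473. Wnt6, 19.6 kb from the unmarked Wnt10a, held 10.7, 11.4, 9.64 and 8.26 RPM and was not called.

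Several windows also hold the start of another gene, whose H3K4me3 cannot be told apart from that of the ligand gene. The Fgf20 start with the most tags lies 280 bp from a start of Efha2, and the Fgf2 start lies 35 bp from Bbs12 and 73 bp from Cetn4. At these shared starts Fgf20 held 64.1, 89.8, 52.8 and 48.5 RPM and Fgf2 28.0, 31.3, 24.8 and 22.7 RPM, without a call between stages. The start of Fgf20 21378 bp downstream, away from other protein-coding genes, behaved otherwise. It went from 17.7 and 14.5 RPM in mESCs to 2.50 and 1.47 in PILECs, with ratios of -2.82 (-3.45 to -2.19) and -3.28 (-4.04 to -2.59), so with starts of its own Fgf20, a neural and inner ear signal, would join the genes called lower. The Fgf2 start 36134 bp downstream went from 9.87 and 14.8 to 7.08 and 3.45 RPM, with ratios of -0.53 (-1.11 to 0.21) and -2.10 (-2.66 to -1.54). Wnt7b, Fgf10 and Fgf15 share their windows with noncoding genes, at 413, 697 and 929 bp.

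Several further genes were called in none of the stage or genotype comparisons. Wnt7a, a neuronal Wnt marked in all 4 libraries, held 18.5, 21.6, 22.5 and 26.5 RPM. Its neighbour in sequence, Wnt7b, held 14.0, 14.5, 17.4 and 12.8 RPM. Fgf16 held 8.63, 7.96, 9.22 and 6.05 RPM and Wnt16 7.81, 7.39, 7.99 and 5.15 RPM. Wnt2, a lung and vessel signal, held 10.3 RPM in wt mESCs and 5.4, 5.49 and 3.39 RPM in the other 3 libraries. Fgf10, the mesenchymal signal for pancreatic progenitors, held 6.58, 9.67, 10.3 and 7.69 RPM and was marked in all libraries but that of wt mESCs.

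In mESCs few ligand genes differed between the genotypes. Of 35 ligand genes tested, 0 were lower (0.611% of all genes tested) and 1, Wnt11, was higher (0.782% of all genes tested) in menin-null than in wt mESCs. Wnt11 had 14 tags in wt and 47 in menin-null mESCs, a log2 ratio of 1.15 (0.33 to 2.19), while its input stood at 3.53 and 1.07 RPM. The call was lost when repeated positions were counted once, at 0.87, or when libraries were scaled by tags near starts, at 0.91. Without the 2-fold rule, 3 genes had intervals below 0 (1.88% of all genes tested), namely Wnt2 with -0.91 (-1.87 to -0.01), Fgf5 with -0.84 (-1.69 to -0.03) and Fgf9 with -0.86 (-1.52 to -0.22). Intervals above 0 were found for 3 (25.8% of all genes tested), namely Wnt11, Fgf4 with 0.35 (0.07 to 0.65) and Fgf20 with 0.48 (0.21 to 0.77), where the input within 50 kb also stood higher, at 0.33 (0.06 to 0.60). The median over all genes was 0.22, and 0.06 over the ligand genes. Scaled by tags near starts the median over all genes was -0.02, the calls over all genes went from 93 lower and 119 higher to 266 lower and 31 higher, and Wnt2, Fgf5 and Fgf9 were called lower and Wnt11 was not called.

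In PILECs the ligand genes called between genotypes were Wnt5b, Wnt3 and Wnt8b, each lower in menin-null cells. Of 40 ligand genes tested, 3 were lower in menin-null than in wt PILECs (1.34% of all genes tested) and 0 higher (0.997% of all genes tested). With input subtracted 5 were lower (2.08% of all genes tested), Wnt2 and Wnt2b being added. Thinned to the smallest library 4 of 28 were lower (1.5% of all genes tested), with Wnt2 and Fgf8 added and Wnt8b lost. Within 500 bp 1 of 33 was lower (2.11% of all genes tested), Wnt5b. Wnt5b, a Wnt that acts mainly without β-catenin, had 384 tags in wt and 152 in menin-null PILECs, 20.5 and 8.60 RPM, after 26.3 and 27.3 RPM in the mESCs. Its ratio was -1.25 (-1.53 to -0.98) in PILECs and 0.05 (-0.42 to 0.53) in mESCs, and windows of at least 1 RPM covered 1200 bp in wt and 600 bp in menin-null PILECs. The input at the gene was 0.999 and 0.993 RPM, and within 50 kb its ratio was -0.19 (-0.32 to -0.06).

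Wnt3 had 256 tags in wt and 114 in menin-null PILECs, 13.6 and 6.45 RPM, after 12.3 and 12.5 RPM in the mESCs. Its ratio was -1.07 (-1.41 to -0.76) in PILECs and 0.01 (-0.68 to 0.74) in mESCs, with inputs of 0.999 and 0.993 RPM in PILECs, and the covered width was 1200 bp in wt and 400 bp in menin-null PILECs. The call fell just short of 2-fold when libraries were scaled by tags near starts, at -0.98, or counted within 500 bp, at -0.97. Wnt8b, a forebrain Wnt, was also called, with 31 and 11 tags and a ratio of -1.33 (-2.55 to -0.38), but it was marked in no library and its levels of 1.65 and 0.622 RPM stood beside inputs of 0.841 and 0.993. The Wnt8b call was lost within 500 bp, within 2 kb, with at least 50 tags and when thinned, and at 3-fold 0 of the 3 were called. Both genes that were marked, Wnt3 and Wnt5b, fell to under their level in each mESC library.

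Without the 2-fold rule, intervals lay below 0 for 13 ligand genes (23.7% of all genes tested) and above 0 for 3 (5.51% of all genes tested), Wnt7a, Fgf5 and Fgf11. Of the 13, 9 were among the 19 Wnt genes tested and 4 among the 21 Fgf genes tested. They included Wnt2b with -0.81 (-1.26 to -0.39), Wnt16 with -0.63 (-1.03 to -0.25), Fgf18 with -0.60 (-0.81 to -0.40), Fgf16 with -0.60 (-0.97 to -0.25), Wnt9a with -0.50 (-0.75 to -0.26) and Fgf10 with -0.42 (-0.75 to -0.09). Wnt5a fell least of them, at -0.25 (-0.40 to -0.10). The median ratio was -0.10 over the ligand genes, -0.25 over the Wnt genes and -0.02 over the Fgf genes, beside -0.07 over all genes. Fgf4 and Fgf17, which were low in PILECs, had ratios of -0.02 (-0.60 to 0.55) and 0.17 (-0.93 to 1.30). Scaled by tags near starts, 193 of all genes were lower and 284 higher in place of 271 and 202, and Wnt5b and Wnt8b kept their calls. Away from the shared starts, Fgf2 was lower too, with 133 and 61 tags and a ratio of -1.03 (-1.50 to -0.59) at its downstream start.

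**Figure D5:**
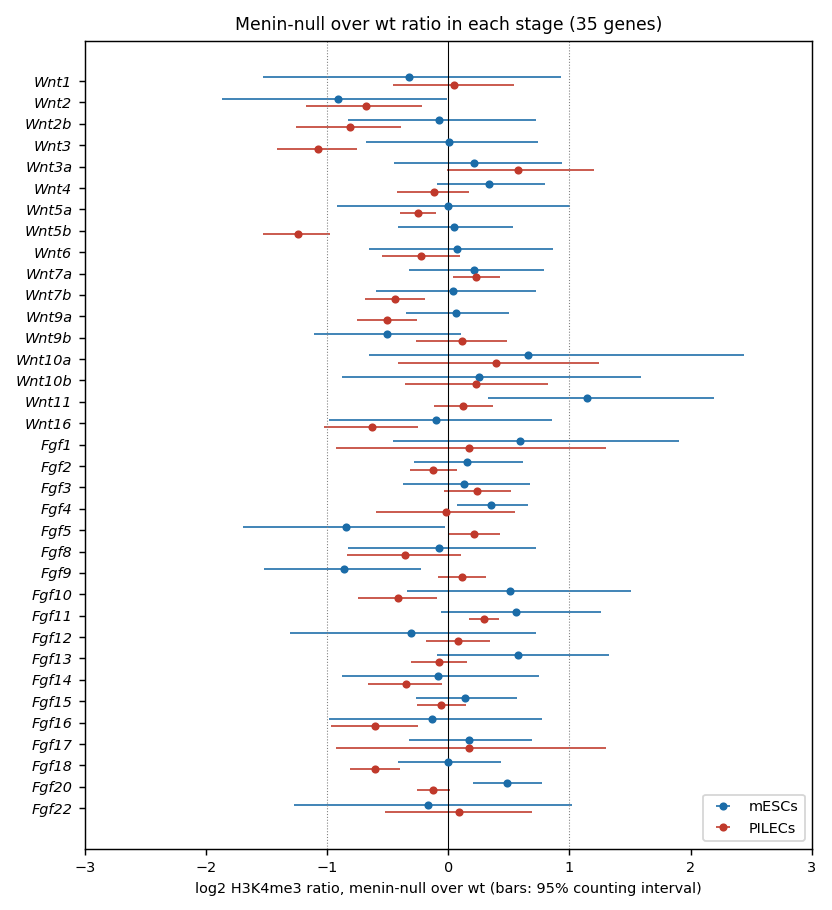
Log2 H3K4me3 ratio of menin-null over wt cells in mESCs (blue) and PILECs (red) at the 35 ligand genes tested in both, with 95% counting intervals; dotted lines mark 2-fold. The PILEC ratios of Wnt3 and Wnt5b lie past the lower dotted line while those in mESCs are near 0, and the mESC intervals are wider because those libraries are smaller.

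The difference of the genotype ratio between stages was then tested for each gene from its 4 counts, by the interval of their odds ratio. Of 35 ligand genes, 7 had a lower menin-null over wt ratio in PILECs than in mESCs (33.4% of all genes tested) and 2 a higher one (1.35% of all genes tested). Over all genes the median difference was -0.32, the scale on which these 7 are to be read. Wnt5b differed by -1.29 (-1.86 to -0.75) and Wnt3 by -1.08 (-1.90 to -0.32), while the 2 that went the other way were Fgf5 with 1.06 (0.21 to 1.94) and Fgf9 with 0.97 (0.31 to 1.67). When libraries were scaled by tags near starts only Wnt5b remained among the 7, Fgf5 and Fgf9 remained higher and Wnt9b was added to them. Thinned to the smallest library, Wnt5b, Fgf20 and Fgf5 of the 9 remained, and Wnt3 was also lost within 500 bp and Fgf9 at the 5'-most start. Across the 35 genes, Pearson's r between the genotype ratios of the stages was 0.21 and Spearman's rho 0.36, beside 0.10 and 0.12 over 15130 genes.

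Other genes of both pathways were counted by the same rules, against the same shares of all genes tested: 14.4% lower and 6.49% higher in wt cells between the stages, and 22.4% lower and 5.16% higher in menin-null cells. From mESCs to PILECs, 3 of 15 Wnt receptor genes were lower and 3 higher in wt cells, and 7 were lower and 0 higher in menin-null cells. Fzd6 fell from 29.6 and 32.1 to 10.7 and 7.92 RPM, with ratios of -1.48 (-1.86 to -1.06) and -2.02 (-2.39 to -1.65). Lrp5 was lower in both, with -1.21 and -1.85, and so was Fzd5, with -1.23 and -1.58. Lower in menin-null cells were Ror2, with -2.30 (-2.61 to -1.98), and Fzd9, with -2.10 (-2.39 to -1.80). The 3 that were higher in wt cells were Ror1, with 1.36 (0.81 to 2.11), Fzd1, with 1.10 (0.67 to 1.64), and Fzd8, with 1.06 (0.74 to 1.44). Wls, which carries Wnt proteins to the cell surface, was called higher in both, with 1.57 (1.03 to 2.30) and 1.23 (0.80 to 1.77).

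Of 11 extracellular Wnt inhibitors, 4 were lower and 2 higher in each genotype (10 tested in menin-null cells), beside the 14.4% and 6.49% of all genes in wt and the 22.4% and 5.16% in menin-null cells. Sfrp5 had ratios of -3.36 (-4.22 to -2.55) in wt and -3.50 (-4.24 to -2.86) in menin-null cells, and Notum, the enzyme that removes the lipid of Wnt proteins, of -2.57 (-2.93 to -2.19) and -2.97 (-3.30 to -2.64). Sfrp4 had -1.76 and -2.74, and Dkk3, which was marked in no library, -2.12 and -1.52. The input at Dkk3 fell too, from 2.35 and 2.94 RPM in wt and menin-null mESCs to 0.684 and 0.993 in the PILECs. Frzb rose by 1.61 (1.08 to 2.30) and 1.76 (1.29 to 2.35), and Dkk2 by 1.61 (0.87 to 2.75) and 1.30 (0.63 to 2.25). Of 9 genes for R-spondins, which raise Wnt receptor levels, and their receptors, 3 were lower and 2 higher in wt cells, and 5 lower and 2 higher in menin-null cells. Rspo4 went from 15.6 and 9.38 RPM to 1.23 and 0.566, Rspo1 from 18.9 and 24.2 to 5.06 and 2.26, and Lgr6, an R-spondin receptor gene, from 18.1 and 20.2 to 3.52 and 1.92, whereas Rspo3 went from 4.93 and 4.26 RPM to 18.4 and 15.3 and Rspo2 from 9.87 and 9.38 to 24.3 and 21.3. Of 12 genes of Wnt transduction, 1, Tcf7, was lower in both and 1, Axin2, higher in wt cells with 1.07 (0.77 to 1.40).

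On the Fgf side, 2 of 6 receptor and coreceptor genes tested were lower in wt cells (14.4% of all genes) and 4 in menin-null cells (22.4% of all genes), and 0 were higher (6.49% and 5.16% of all genes). Fgfr4 went from 16.9 and 13.6 RPM to 3.52 and 3.22, and Kl, the coreceptor for Fgf23, from 18.9 and 21.0 to 6.13 and 4.47. Fgfrl1 and Fgfr2 were lower in menin-null cells, with -1.79 (-2.07 to -1.51) and -1.10 (-1.29 to -0.90). Of 10 feedback and target genes of Fgf signalling, 2 fell and 1 rose in wt cells, and 5 fell and 1 rose in menin-null cells. Spry4, a feedback inhibitor, went from 62.1 and 75.9 RPM to 25.7 and 22.6, and Etv5, a transcription factor induced by Fgf, from 53.4 and 64.5 RPM to 25.3 and 22.3. Spry1 was lower in menin-null cells, with -1.51 (-1.72 to -1.30). Flrt3 rose by 1.60 (1.09 to 2.26) and 2.04 (1.55 to 2.66). Of 2 Fgf binding protein genes, Fgfbp1 had under 20 tags in wt cells and Fgfbp3 was not called there, and Fgfbp3 was lower in menin-null cells with -1.06 (-1.33 to -0.78).

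Between genotypes, in mESCs 0 of 64 pathway genes tested were lower (0.611% of all genes) and 1 (0.782% of all genes), Ror2, was higher, with 1.01 (0.59 to 1.48). In menin-null PILECs, Sfrp4 with -1.13 (-1.63 to -0.68) and Rspo1 with -1.14 (-1.73 to -0.61) were lower, 2 of 68 tested (1.34% of all genes), and 0 were higher (0.997% of all genes). All 15 Wnt receptor genes had ratios below 0 in PILECs, with a median of -0.25 and 10 intervals below 0, and 0 were called. Over all 20267 genes tested there, 12808 ratios were below 0, the median was -0.07 and 23.7% of intervals lay below 0. In the Fgf receptor list 6 of 7 ratios were below 0, with a median of -0.12 and 2 intervals below 0.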

How the data were processed

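The 8 libraries were analysed from the deposited tag positions. Per the methods of the study, the authors placed reads of 36 bp on mm9 and dropped those with several locations or more than 2 mismatches; the aligner is not given in the sources used here. The authors also deposited an alignment score per tag, which was not used, and 1.04% to 1.81% of tags listed more than 2 mismatches and were kept. Tags were moved 125 bp to the middle of the 250-bp fragment. Starts came from an mm9 annotation (GENCODE M1, 75449 distinct starts), and a gene with several was given the start with the highest sum of RPM over the 4 H3K4me3 libraries. Each group has 1 library and no test across samples was run: log2 ratios had 1 tag added to each count, and intervals were exact conditional binomial ones, or for differences between stages exact odds ratio ones (numpy 2.4.6, scipy 1.17.1). They cover counting error only. Scripts were tested on simulated data. Alternatives changed duplicates, mismatches, scaling, window, tag position, start, minimum, depth, input and fold; 1, leaving out starts shared with another protein-coding gene, was chosen after seeing the data. The members and all gene lists were chosen with earlier results of these data known. Named are members called in a comparison, marked throughout, or next to another member, and of each list up to 4 called genes with the largest fold in a comparison; the printed promoters and the other genes and starts given were chosen after their values were seen. Sox1 and Map2 were not analysed here.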

Additional observations from a re-analysis of the deposited data

Results flagged for a closer look

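For 9 ligand genes the menin-null over wt log2 ratio in PILECs differed from that in mESCs, by the interval of the odds ratio of the 4 H3K4me3 counts. A difference below 0, with its 95% interval, was found at Wnt5b with -1.29 (-1.86 to -0.75), Wnt3 with -1.08 (-1.90 to -0.32), Wnt11 with -1.02 (-2.10 to -0.17), Fgf10 with -0.93 (-1.99 to -0.01), Fgf18 with -0.60 (-1.09 to -0.14), Fgf20 with -0.60 (-0.93 to -0.30) and Wnt9a with -0.57 (-1.07 to -0.08). A difference above 0 was found at Fgf5 with 1.06 (0.21 to 1.94) and Fgf9 with 0.97 (0.31 to 1.67). Of all genes tested 33.4% differed below 0 and 1.35% above 0, with a median of -0.32, and the share of H3K4me3 tags near starts moved with it, from 43.53% in wt to 51.39% in menin-null mESCs and from 42.7% to 40.07% in PILECs. At Wnt11 and Fgf20 the mESC ratio carried the difference, with 14 against 47 tags at Wnt11 and 156 against 316 at Fgf20, and at Wnt3 and Wnt5b the PILEC ratio did. For Fgf5 and Fgf9 it was again the mESC ratio, on 30 against 24 and 48 against 38 tags. The mESC ratio of Fgf9 varied with the start on chromosome 14. It was -0.88 (-1.79 to -0.02) at 58693952, 0.13 (-0.74 to 1.09) at 58691523 and -0.15 (-1.06 to 0.81) at 58689384. Fgf20 was measured at a start it shares with Efha2. Scaled by tags near starts, Wnt5b was below 0 and Wnt9b, Fgf5 and Fgf9 above 0, and the other 6 were not called. Thinned to the smallest library, Wnt5b, Fgf20 and Fgf5 kept their calls and Wnt3, Wnt9a, Wnt11, Fgf9, Fgf10 and Fgf18 did not. Wnt11 and Fgf10 were also lost with repeated positions counted once, Wnt3 and Fgf10 within 500 bp, Fgf9 and Fgf10 at the 5'-most start, and Fgf20 with shared starts left out.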

How the results depend on the processing

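No paired analysis was possible because each group has 1 library and the labels share no replicate numbers, and for the same reason no library could be left out. Of the 32 calls of single ligand genes, no direction reversed under any alternative: 364 values kept their side of the threshold and 52 lost it. Of the 52, 15 were lost at 3-fold, 9 when thinned and 7 within 500 bp. Of the 364, 32 came from dropping the minimum of tags and 32 from leaving out shared starts. Neither setting could end these calls. The first only loosens the rule, and the second changed only Fgf2 and Fgf20, which carry none of the 32. At 3-fold and with at least 50 tags only the cutoff changed, so no direction could reverse there. With input subtracted the interval stayed that of the raw counts, so a call could be lost there only through its ratio. Scaled by tags near starts, 0 ligand genes were higher (0.204% of all genes tested) and 3 lower (1.75%) in menin-null mESCs. A lower genotype ratio in PILECs than in mESCs was found for 1. Marked were 1, 1, 7 and 5 in wt mESCs, menin-null mESCs, wt PILECs and menin-null PILECs. For the marked genes this scaling by its construction divides the enrichment near starts out of the ratio to input. Within 500 bp, 17 were lower (26.8% of all genes tested) and 3 higher (5.05%) between stages in menin-null cells. In menin-null mESCs 1 was lower (0.696%) and 2 higher (1.25%), and in menin-null PILECs 1 was lower (2.11%). Thinned to the smallest library, 5 were lower between stages in wt cells (11.3% of all genes tested) and 3 higher in menin-null cells (4.95%). The genotype ratio then differed at 3 lower and 1 higher. With input subtracted, 3 were lower in menin-null mESCs (0.776% of all genes tested) and 5 in menin-null PILECs (2.08%). At 3-fold, 6 were lower (12.9% of all genes tested) and 3 higher (2.39%) between stages in menin-null cells. At the same limit 0 were higher in menin-null mESCs (0.0657%) and 0 lower in menin-null PILECs (0.286%). Counting repeated positions once left 0 higher in menin-null mESCs (0.582% of all genes tested), and the 5'-most start left 1 higher difference between stages. The cause of the other shifts was not tested. For marked genes and for the difference of the genotype ratio between stages, shares of all genes are given at the main setting only. Their counts under the alternatives therefore cannot be set beside all genes. The smaller mESC libraries limit the depth: 3 tags, the limit that a count of 0 allows, are 1.23 RPM in wt and 0.853 RPM in menin-null mESCs, and 0.16 and 0.17 RPM in wt and menin-null PILECs. Starts shared with another protein-coding gene were left out in an alternative chosen after seeing the data. Then 10 were lower between stages in wt cells (14.4% of all genes tested), 13 in menin-null cells (22.4%) and 4 in menin-null PILECs (1.34%).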
